A study of Mus musculus with 9 samples.

Results

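The 10 genes described here are Lrrc15, Postn, Dpt, Pi16, Clec3b, Gsn, Mfap5, Tnmd, Scx and Prg4. They are grouped as genes of fibroblasts, the periosteum (the connective tissue sheath of bone), tendon and the joint lining. Which cells made their RNA in these libraries was not tested. They were taken by gene name from a deposited table of 56980 Ensembl genes, in which all 10 were found. All 10 were also among the 16576 genes with enough counts to be tested. The genes were selected on earlier results of these same libraries, with their aged and young values known, so their differences with age are given as a description and support nothing by themselves. The bulk libraries came from 5 aged (20 months) and 4 young (3 months) wild-type mice of the C57BL/6 strain, each labelled a biological replicate. The tissue was labelled bone marrow, and the RNA came from homogenised trabecular bone, so cells of marrow, of bone and of tissue attached to it could all contribute. The series is about sensory nerves and netrin-4 in ageing bone, and this comparison asks which transcripts differed with age.

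Connective tissue cells of the skeleton share a matrix programme of collagens, small proteoglycans and microfibrils, and they differ by site. Adventitial fibroblasts around vessels are marked by Pi16, Dpt, Clec3b and Mfap5. The periosteum and ligaments make periostin, the tendon is specified by the transcription factor scleraxis, and the joint lining secretes the lubricant proteoglycan 4. LRRC15 is a membrane protein that mesenchymal cells make under TGF-beta, and POSTN is a secreted protein that also responds to TGF-beta.

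Library totals were 19804883 to 23548594 estimated counts in the aged and 20120991 to 23336827 in the young libraries. Markers of both marrow and bone were present: Ptprc, the pan-leukocyte gene encoding CD45, was at 264 to 787 CPM (counts scaled to the library size with TMM factors) and Col1a1, the main bone collagen gene, at 45.3 to 2710 CPM. Library composition and sex transcripts also differed among the mice. Aged 3, aged 4 and young 4 had 5.63% to 6.54% of their counts in ribosomal protein genes, against 2.85% to 3.07% in the other 6 libraries, and they are shown apart below. The stated sex was female, but Xist, which coats a silenced X chromosome, had 7909 to 21724 counts in aged 1 to 4 and 1 to 9 counts in aged 5 and young 1 to 4. The Y-linked gene Ddx3y had 1640 counts in aged 5, 888 to 1721 counts in young 1 to 4 and 0 counts in aged 1 to 4, so age and sex transcripts cannot be told apart in 4 of the 5 aged libraries. In bulk tissue, fewer cells of a type and less RNA per cell also cannot be told apart.

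Promoter sequences in the RefSeq table (build GRCm38.p6) were found for 6 of the 10 genes. The 250 bases before the start are shown for Lrrc15 and Postn, the pair with the lowest aged levels relative to young, and for Tnmd, the tendon gene that scleraxis is known to activate in mouse. Capitals mark CANNTG, the E-box letters read by factors of the scleraxis family, and TATAAA, the TATA box, each searched on both strands. CANNTG was found in 66.2% and TATAAA in 12.4% of 32851 windows of this length.
Lrrc15, chr16:30283255-30283504, minus strand: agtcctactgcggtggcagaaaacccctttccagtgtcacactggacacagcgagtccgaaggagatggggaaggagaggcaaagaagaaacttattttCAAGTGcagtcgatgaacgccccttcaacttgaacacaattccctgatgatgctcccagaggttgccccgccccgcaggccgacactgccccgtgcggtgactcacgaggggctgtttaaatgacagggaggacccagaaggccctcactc
Postn, chr3:54360857-54361106, plus strand: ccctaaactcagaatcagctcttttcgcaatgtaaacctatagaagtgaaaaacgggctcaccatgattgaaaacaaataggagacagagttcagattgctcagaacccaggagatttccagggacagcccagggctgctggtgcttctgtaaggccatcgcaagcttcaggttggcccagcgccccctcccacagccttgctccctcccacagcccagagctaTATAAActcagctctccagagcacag
Tnmd, chrX:133850758-133851007, plus strand: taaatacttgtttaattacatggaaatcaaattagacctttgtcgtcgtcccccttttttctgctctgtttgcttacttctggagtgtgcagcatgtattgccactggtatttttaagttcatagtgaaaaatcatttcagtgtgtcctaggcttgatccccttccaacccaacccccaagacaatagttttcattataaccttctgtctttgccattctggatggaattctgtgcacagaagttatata
The Lrrc15 window held 1 CANNTG, beginning 151 bases before the start, and 0 TATAAA. The table gives Postn a pair of starts, and the window shown is that of the downstream one, printed because it holds a motif: 1 TATAAA, beginning 26 bases before the start, and 0 CANNTG. The window of the other Postn start, chr3:54359017-54359266, held 0 of either. The Tnmd window held neither. These letters are a description of the windows and no evidence of binding.

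Lrrc15 was the gene with the clearest difference between aged and young bone, and Postn had the next lowest aged level relative to young. Clec3b and Tnmd were lower on average in aged libraries with groups that overlapped. The other 6 genes, Dpt, Pi16, Gsn, Mfap5, Scx and Prg4, had log2 fold changes (aged over young) between −0.08 and 0.53. Of the 10 genes, 5 had a log2 fold change below 0, against 46.5% of all genes tested, and 2 were at or below −1, against 3.12%. The median was −0.04 over the 10 and 0.03 over all tested genes. The edgeR quasi-likelihood test called 0 of the 10, with 0% of the 16576 genes called at an adjusted p under 0.05. Before adjustment 2 of the 10 and 1457 of all genes (8.79%) had p under 0.05, and limma-voom also called 0 genes. DESeq2 called 360 genes (2.17%) and 1 of the 10, Lrrc15. A fit with the library set as a term called 319 genes (1.92%) and again 1 of the 10, Lrrc15. None of the 10 was called within the 6-library set (0.00603% of genes), with a replicate block (0.0784%) or without aged 5 (0.0362%), while the library set term without aged 5 called Lrrc15 and 4.55% of all genes.

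**Figure D1:**
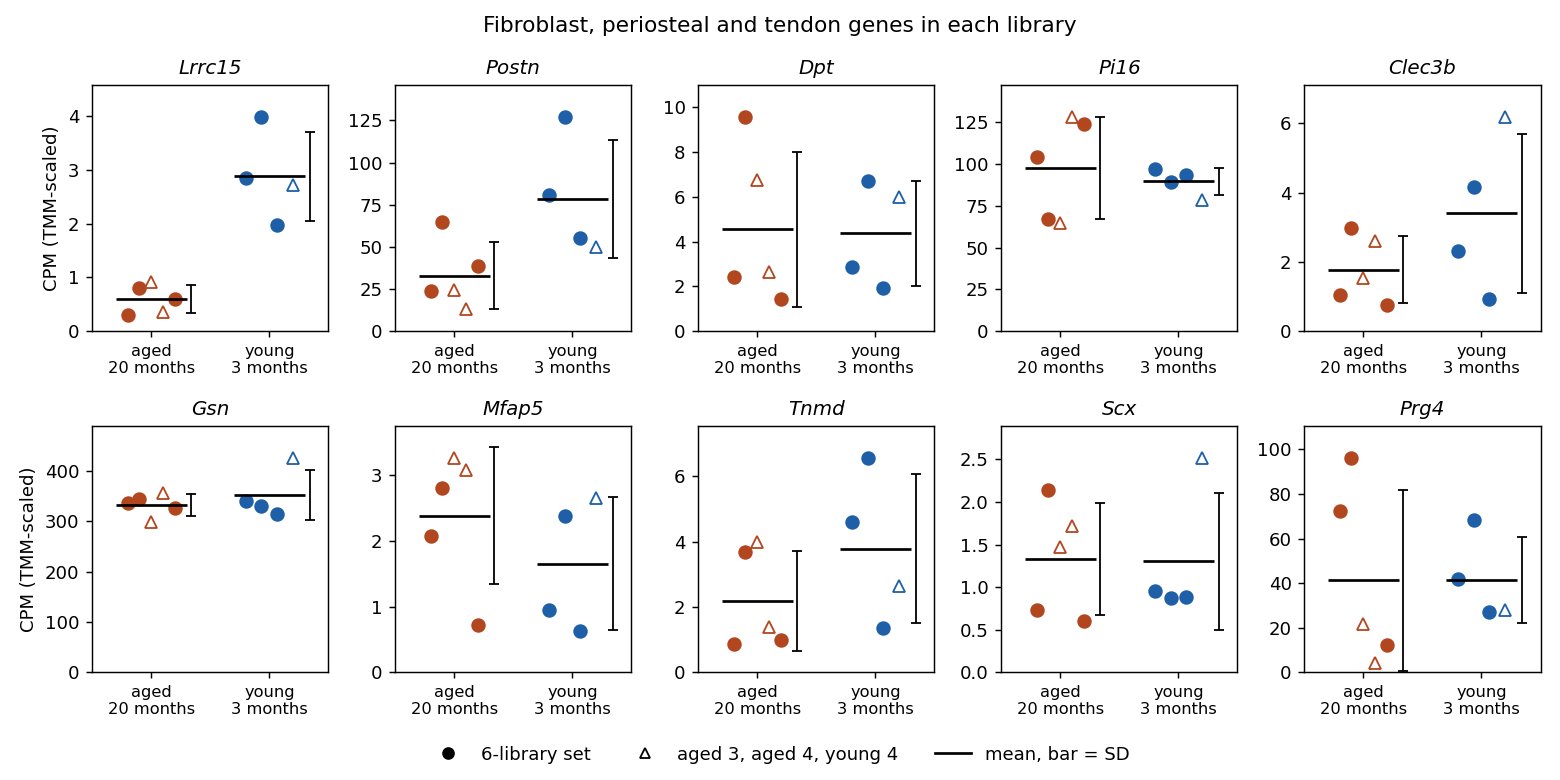
CPM with TMM scaling of each of the 10 genes (vertical axis, linear, from 0) in the 5 aged libraries (left) and the 4 young libraries (right), with the mean and SD of each group. Open triangles are aged 3, aged 4 and young 4; Lrrc15 is the gene whose groups do not overlap, at 0.302 to 0.919 CPM in aged and 1.97 to 3.98 CPM in young libraries.

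Lrrc15 (ENSMUSG00000052316) had 0.302, 0.800, 0.919, 0.364 and 0.603 CPM in aged 1 to 5, against 2.85, 3.98, 1.97 and 2.72 CPM in young 1 to 4. Every aged library lay below every young library, as it did for 2.76% of all tested genes, and 0 of the 10 genes showed the reverse, against 1.67% of all. In the 6-library set Lrrc15 was again the 1 gene of the 10 with separate groups, where 16.6% of all genes were lower in every aged library and 13.7% higher. The counts were small, 7, 18, 15, 7 and 16 in aged 1 to 5 and 75, 87, 47 and 40 in young 1 to 4. The means were 0.598 ± 0.268 CPM in aged (SD, n = 5) and 2.88 ± 0.83 CPM in young libraries (SD, n = 4), a ratio of 0.208. The log2 fold change was −2.26 (SE 0.43), which ranked 20 from the lowest among the 16576 tested genes, with an edgeR adjusted p of 0.255. In the fit that also held the library set, Lrrc15 fell by 2.28 (log2, SE 0.41), with an edgeR adjusted p of 0.0405. That call was lost on leaving out aged 1, 2 or 4 or any young library (adjusted p 0.0574 to 0.179) and was kept without aged 3 (0.0180) or aged 5 (0.0399). Its log2 fold change was −2.35 in the larger set and −1.996 in the smaller one, where the single young library allows no test. Aged 5 against young 1 to 3, which all carry Y-linked transcripts and belong to the larger set, gave −2.27 with no test. The same comparison, which rests on 1 aged library, gave −2.08 for Tnmd, −1.91 for Prg4, −1.70 for Clec3b and −1.41 for Dpt. It gave −1.17 for Postn, −0.87 for Mfap5, −0.58 for Scx, −0.01 for Gsn and 0.41 for Pi16. The deposited TPM values (transcript abundance scaled for gene length) of Lrrc15 also kept the age groups apart, at 0.05 to 0.180 TPM in aged and 0.260 to 0.860 TPM in young libraries. The order of libraries within the groups differed from that in CPM. In the authors' deposited table Lrrc15 had a log2 fold change of −2.28 and an adjusted p of 1.49e-04, from the same libraries.

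Postn (ENSMUSG00000027750), the periostin gene, had 23.7, 64.8, 24.3, 13.1 and 38.9 CPM in aged 1 to 5, against 80.8, 127, 55.5 and 50.1 CPM in young 1 to 4. Aged 2 lay above young 3 and young 4, and the other 4 aged libraries lay below all young libraries. The means were 33.0 ± 20.0 CPM in aged (SD, n = 5) and 78.3 ± 35.1 CPM in young libraries (SD, n = 4). Its log2 fold change was −1.25 (SE 0.45, edgeR adjusted p = 0.426). With the library set as a term it was −1.16 (SE 0.33, edgeR adjusted p = 0.0983). Within the sets it was −1.03 over 6 libraries and −1.35 over 3, and without aged 2 it was −1.65. In the authors' deposited table its log2 fold change was −1.24 with an adjusted p of 0.209. Tgfbi, which encodes a secreted protein of the same fasciclin-domain family, was on the other side of 0, at 316 ± 101 CPM in aged (SD, n = 5) and 171 ± 22.4 CPM in young libraries (SD, n = 4), with a log2 fold change of 0.89 (edgeR adjusted p = 0.342).

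**Figure D2:**
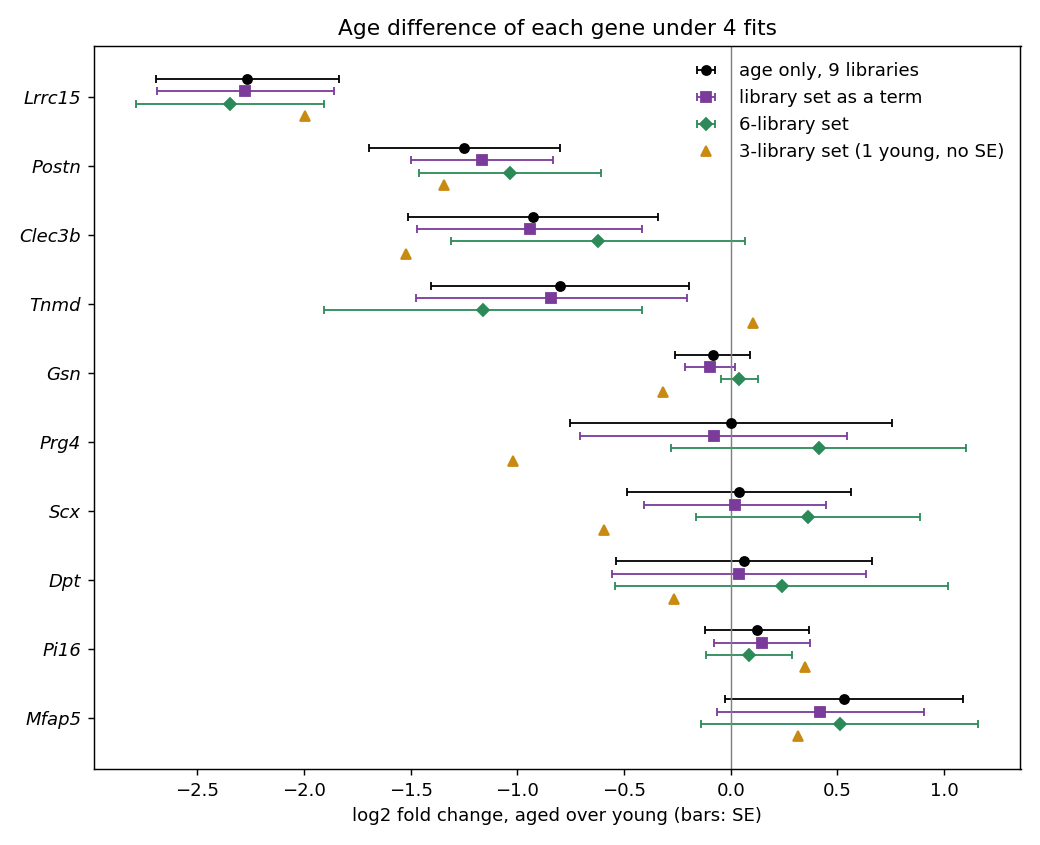
Log2 fold change, aged over young (horizontal axis), of the 10 genes with age as the only term, after adding the library set, within the 6-library set and within the 3-library set; bars are SE, and the 3-library set has 1 young library and none. Lrrc15 lies between −2.35 and −1.996 in the 4 fits, while Prg4, Scx, Dpt, Gsn and Tnmd lie on both sides of 0.

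The adventitial fibroblast genes differed among themselves. Pi16 (ENSMUSG00000024011), which encodes a peptidase inhibitor of the CAP family, had 104, 67.4, 64.7, 128 and 124 CPM in aged 1 to 5, against 97.1, 89.3, 93.6 and 78.5 CPM in young 1 to 4. The aged libraries lay on both sides of the young ones, and the log2 fold change was 0.13 (SE 0.24). Dpt (ENSMUSG00000026574), encoding dermatopontin, a small matrix protein that binds decorin, had 2.42, 9.56, 6.74, 2.65 and 1.43 CPM in aged 1 to 5, against 2.85, 6.73, 1.93 and 5.98 CPM in young 1 to 4. Its lowest and its highest library were both aged, and its log2 fold change was 0.06 (SE 0.60). Clec3b (ENSMUSG00000025784), encoding the plasminogen-binding protein tetranectin, had 1.04, 2.98, 1.53, 2.60 and 0.753 CPM in aged 1 to 5, against 2.32, 4.17, 0.924 and 6.18 CPM in young 1 to 4. Young 3 lay below 4 of the 5 aged libraries. For Clec3b the log2 fold change was −0.93 (SE 0.58, edgeR adjusted p = 0.811), −0.62 within the 6-library set and −1.52 within the 3-library set.

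Mfap5 (ENSMUSG00000030116), which encodes a protein of elastic microfibrils, had 2.07, 2.80, 3.25, 3.06 and 0.716 CPM in aged 1 to 5, against 0.951, 2.38, 0.630 and 2.65 CPM in young 1 to 4. Aged 2, 3 and 4 lay above every young library and aged 5 below 3 of the 4. Mfap5 had a log2 fold change of 0.53 (SE 0.56, edgeR adjusted p = 0.986), with 15 to 63 counts per library. Mfap2, which encodes a related microfibril protein, was at 1.04 ± 0.814 CPM in aged (SD, n = 5) and 2.26 ± 1.59 CPM in young libraries (SD, n = 4), with a log2 fold change of −1.12 (edgeR adjusted p = 0.727).

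Gsn (ENSMUSG00000026879), the gelsolin gene, was the most abundant of the 10 and, in CPM, the most even. Gelsolin severs and caps actin filaments, and it is made as a cytoplasmic and as a secreted form that a count per gene does not separate. Gsn had 336, 344, 298, 356 and 325 CPM in aged 1 to 5, against 339, 330, 314 and 425 CPM in young 1 to 4. Its log2 fold change was −0.08 (SE 0.18), 0.04 within the 6-library set and −0.32 within the 3-library set, where young 4 was in CPM the highest library of all 9. In the deposited TPM values Gsn ran from 71.9 to 217 TPM over the 9 libraries, with young 4 at 88.5 TPM. The SD of log2 CPM within groups was 0.146, smaller than in all but 2.59% of tested genes, whose median was 0.53. Capg, a capping protein gene of the same family, was at 128 ± 30.5 CPM in aged (SD, n = 5) and 110 ± 28.0 CPM in young libraries (SD, n = 4), with a log2 fold change of 0.22 (edgeR adjusted p = 0.986).

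The tendon genes Tnmd and Scx did not share a pattern. Tnmd (ENSMUSG00000031250), encoding tenomodulin, a membrane glycoprotein of tendon and ligament cells, had 0.863, 3.69, 3.98, 1.40 and 0.979 CPM in aged 1 to 5, against 4.60, 6.55, 1.34 and 2.65 CPM in young 1 to 4. The groups overlapped, with aged 2 and aged 3 above young 3 and young 4. Tnmd had a log2 fold change of −0.80 (SE 0.60, edgeR adjusted p = 0.897), −1.16 within the 6-library set and 0.10 within the 3-library set. Scx (ENSMUSG00000034161), encoding scleraxis, had 0.733, 2.13, 1.47, 1.71 and 0.603 CPM in aged 1 to 5, against 0.951, 0.870, 0.882 and 2.51 CPM in young 1 to 4. In CPM young 4 stood apart from the other young libraries and was the highest of all 9. In the deposited TPM values Scx was highest in aged 2, at 2.43 TPM, and was at 1.57 TPM in young 4. The log2 fold change of Scx was 0.04 (SE 0.53), 0.36 within the 6-library set and −0.59 within the 3-library set, from 16 to 48 counts per library. In GENCODE M21 Scx overlaps Bop1 on the opposite strand, and use of strand in counting is not given in the sources used here, so the Scx values are uncertain. Bop1 was at 26.1 to 54.4 CPM in aged and 37.6 to 41.6 CPM in young libraries, and Scx was 1.34% to 5.63% of Bop1 in aged and 2.13% to 6.05% in young libraries.

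Prg4 (ENSMUSG00000006014), encoding lubricin, the lubricant of joint surfaces, varied most. It had 72.3, 96.0, 21.5, 4.41 and 12.2 CPM in aged 1 to 5, against 41.7, 68.4, 27.0 and 28.0 CPM in young 1 to 4. Aged 1 and aged 2 were the highest of all 9 libraries and aged 3, 4 and 5 the lowest. The means were 41.3 ± 40.5 CPM in aged (SD, n = 5) and 41.3 ± 19.3 CPM in young libraries (SD, n = 4), and the SE of the log2 fold change was 0.75. The highest aged library was 21.7-fold above the lowest, and the highest young library 2.53-fold. Among young libraries Clec3b (6.69-fold), Tnmd (4.87), Mfap5 (4.20), Dpt (3.48) and Scx (2.89) ran wider than Prg4. Postn ran as wide as Prg4 there (2.53), and Lrrc15, Pi16 and Gsn ran narrower. The SD of log2 CPM within groups was 1.44, larger than in 94.1% of tested genes. For Prg4 the 6-library set gave a log2 fold change of 0.41 and the 3-library set −1.02. Prg4 overlaps Tpr on the opposite strand in GENCODE M21 and carries the same limit. Tpr was at 165 to 256 CPM in aged and 148 to 248 CPM in young libraries. Whether reads of Tpr entered the Prg4 counts was not tested.

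**Figure D3:**
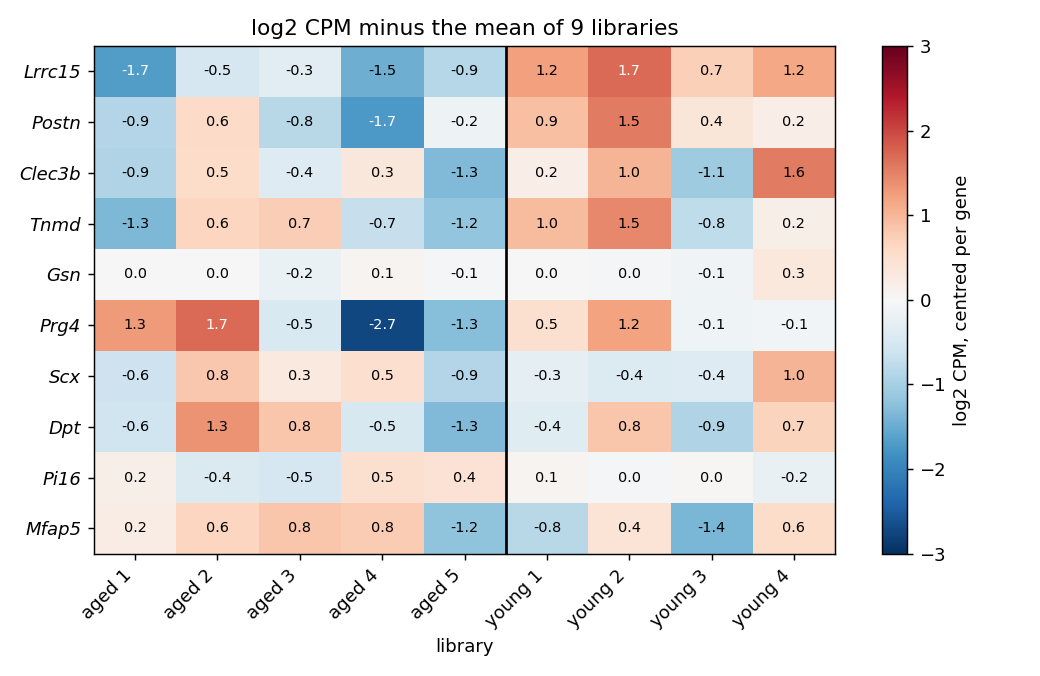
Log2 CPM of each of the 10 genes minus its mean over the 9 libraries (colour and printed value), aged libraries left of the line and young libraries right of it. Lrrc15 is below its mean in 5 of 5 aged and above it in 4 of 4 young libraries, while Prg4 runs from aged 2 at its highest to aged 4 at its lowest.

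Single libraries stood high or low for several genes at once. Aged 2 was the highest aged library for 5 of the 10 genes and aged 5 the lowest for 4. Young 2 was the highest young library for 5 and young 3 the lowest for 7. Leaving out aged 2 gave log2 fold changes of −0.40 for Dpt, −0.20 for Scx and −0.58 for Prg4. Leaving out young 2 gave −0.39 for Tnmd and 0.79 for Mfap5. Within aged libraries the ratio of highest to lowest CPM was 1.20 for Gsn, 1.98 for Pi16, 3.04 for Lrrc15 and 6.68 for Dpt.

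Levels can be compared between genes only per length, and the deposited TPM values were used for this. The median over the 9 libraries was 158 TPM for Gsn, 41.0 for Pi16, 23.3 for Prg4 and 18.4 for Postn. It was 2.51 TPM for Clec3b, 2.38 for Dpt, 1.96 for Mfap5, 1.39 for Tnmd, 1.35 for Scx and 0.180 for Lrrc15. Gsn was the only gene of the 10 whose range over the libraries, 71.9 to 217 TPM, did not overlap that of its neighbour in this order, Pi16 at 17.4 to 58.7 TPM. All the other neighbours overlapped. Lrrc15, with the largest ratio between ages, was the one at the lowest level.

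The patterns of the 10 genes over the 9 libraries were compared by Pearson's r of log2 CPM after the mean of each library set was subtracted. These values are descriptions, since the points share libraries and age groups and the top of 14829 ranked genes is high by selection. Lrrc15 and Postn were the most alike pair, at r = 0.94 over 9 libraries, with Lrrc15 ranked 42 of 14829 genes by likeness to Postn and Postn ranked 218 by likeness to Lrrc15. Dpt and Prg4 had r = 0.83, and Prg4 ranked 121 for Dpt and Dpt 78 for Prg4. Tnmd had r = 0.82 with Postn and 0.41 with Scx, which ranked 2920 for it. Pi16 ran against the other genes, with r = −0.83 with Dpt and −0.83 with Prg4, where it ranked 14688 and 14698. Only with Gsn was r of Pi16 above 0, at 0.11.

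**Figure D4:**
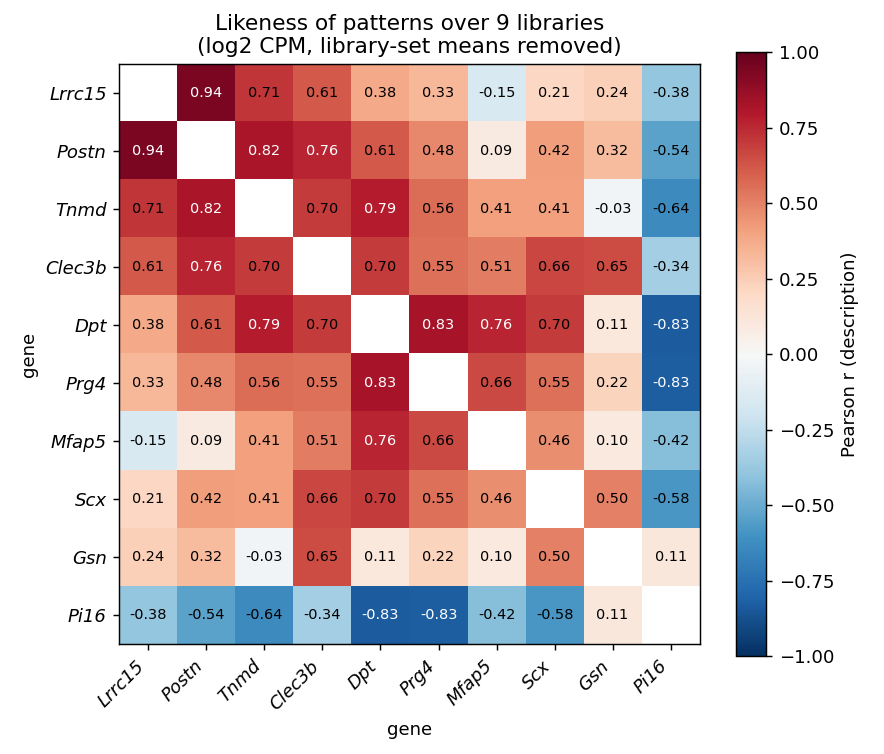
Pearson's r between the 10 genes (both axes) over the 9 libraries, from log2 CPM after the mean of the 6-library and of the 3-library set was subtracted; given as a description. Lrrc15 with Postn is at 0.94, Dpt with Prg4 at 0.83 and Pi16 with Dpt and with Prg4 at −0.83.

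Among all ranked genes, those most like Lrrc15 over the 9 libraries were Tcf3 (r = 0.99), a transcription factor gene of the E protein family, and Ntn4 (r = 0.99), the netrin-4 gene of the study's title. Both had been measured in the same aged and young libraries, so a shared difference with age enters r. Lcat (r = 0.98) and Gnai1 (0.98) were most like Postn, Nfib (0.97) and Slc9a3r2 (0.96) most like Dpt, and Zfp516 (0.99) and Stxbp5 (0.98) most like Pi16. Cilp2 (0.98), a cartilage matrix gene, and Sema3b (0.97) were most like Clec3b, and Nsfl1c (0.99) and Vasn (0.99) most like Gsn. Fndc1 (0.97) and Pck1 (0.94) were most like Mfap5, Cyp2u1 (0.98) and Neo1 (0.97) most like Tnmd, Irf7 (0.93) and Kif1c (0.93) most like Scx, and C6 (0.95) and Hcn3 (0.95) most like Prg4.

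Related genes were read from 8 lists that do not hold the 10. The edgeR test with age as the only term called 0 genes in all 8. Of 8 tested periosteal genes 1 was above 0 and 7 below, with a median log2 fold change of −0.90, against 0.03 over all tested genes. Of 10 tendon genes 1 was above 0 and 9 below (median −0.25), and of 15 fibroblast genes 6 were above and 9 below (median −0.29). Elastic fibre genes had 3 of 12 above 0 (median −0.10), and synovial and joint genes 2 of 7 (median −0.07). Adventitial fibroblast genes had 7 of 12 above 0 (median 0.16), TGF-beta response genes 7 of 10 (median 0.22) and gelsolin family genes 4 of 6 (median 0.14).

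Single list genes covered both directions, and those given here are among the first 3 tested in each list (means in CPM ± SD, n = 5 aged and 4 young). In the periosteal list, Prrx1, a mesenchymal homeobox gene, was at 15.5 ± 5.09 CPM in aged and 14.9 ± 3.60 CPM in young libraries, and Ogn, a small proteoglycan gene, at 13.9 ± 6.51 CPM in aged and 18.9 ± 7.05 CPM in young libraries. Gli1, a hedgehog transcription factor gene, was at 0.623 ± 0.452 CPM in aged and 1.37 ± 0.662 CPM in young libraries. In the tendon list, Mkx, a tendon homeobox gene, was at 1.28 ± 0.615 CPM in aged and 1.33 ± 0.436 CPM in young libraries. Tnc, for tenascin C, was at 148 ± 91.0 CPM in aged and 191 ± 77.4 CPM in young libraries, and Fmod, for the collagen-binding fibromodulin, at 26.7 ± 17.4 CPM in aged and 49.1 ± 22.5 CPM in young libraries. Of these 6 genes Prrx1 alone had a log2 fold change above 0, and the edgeR adjusted p was 0.661 or more for each.

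In the fibroblast list, the receptor genes Pdgfra and Pdgfrb had log2 fold changes of 0.34 and −0.29, and Dcn, the gene of decorin, which dermatopontin binds, had −0.57. Dcn was at 96.4 ± 34.3 CPM in aged (SD, n = 5) and 143 ± 69.2 CPM in young libraries (SD, n = 4). Of the adventitial genes, Cd34 was at 0.02, Dpp4 at −0.65 and Cd248 at −0.29 on the log2 scale. For the joint genes Has2, a hyaluronan synthase gene, Cd55 and Creb5 it was −1.30, −0.03 and 0.88. The elastic fibre genes Eln (elastin), Fbn1 and Fbn2 (fibrillins) had 0.08, −0.23 and −1.01. The TGF-beta response gene Ccn2 had 0.06, beside Tgfbi above, and the gelsolin relatives Scin and Svil had −0.45 and close to 0, beside Capg above. None of these genes passed, with edgeR adjusted p of 0.342 for Tgfbi and 0.742 or more for the others. With the library set as a term, where 1.92% of all genes were called, 4 list genes passed, named here after their values were seen. Col3a1, a fibrillar collagen gene, fell by 2.15 and Lum, encoding lumican, fell by 1.61, while Ly6c1 rose by 0.70 and Skil, a repressor of SMAD signalling, by 0.83 on the log2 scale (edgeR adjusted p 0.0405 to 0.0455). These calls were absent with age as the only term (edgeR adjusted p 0.255 to 0.417), and all 4 were lost when aged 1, aged 4, young 1, young 2 or young 3 was left out, since that fit then called 0 genes.

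Markers of other cell types moved with several of these genes, and their part in the results was not tested. All 10 osteoblast markers were below 0 (median −0.75), with a summed level of 333 to 2501 CPM in aged and 2307 to 6086 CPM in young libraries, in the direction of Lrrc15 and Postn. All 12 skeletal muscle markers were detected, at a summed 4189 to 11769 CPM in aged and 4221 to 11381 CPM in young libraries, with 6 above 0 and 6 below (median −0.02). Their highest libraries were aged 4, young 4 and aged 2, at 11769, 11381 and 10591 CPM, which were also the 3 highest of Scx. Of 9 chondrocyte markers 3 were tested, with 0 above 0 and 3 below (median −0.86). The 9 summed to 11.2 to 85.5 CPM in aged and 32.0 to 190 CPM in young libraries. That sum was lowest in aged 4, as were Prg4 and the osteoblast, endothelial and macrophage sums. It was highest in young 1, while Prg4 was highest in aged 2. Reticular stroma markers had 1 of 7 above 0 (median −0.11), and their summed level did not overlap between ages, at 639 to 1163 CPM in aged and 1390 to 1465 CPM in young libraries, again in the direction of Lrrc15 and Postn. Most of that sum was Cxcl12, the chemokine gene of marrow stroma, at 784 ± 188 CPM in aged (SD, n = 5) and 1263 ± 38.0 CPM in young libraries (SD, n = 4), with an edgeR adjusted p of 0.404. Macrophage markers had 4 of 5 above 0 (median 0.57), at a summed 450 to 1190 CPM in aged and 467 to 576 CPM in young libraries. Osteoclast markers had 4 of 7 above 0 (median 0.32), endothelial markers 4 of 6 (median 0.20) and smooth muscle and pericyte markers 0 of 5 (median −0.38). Of the keratinocyte markers, Krt5, Krt14 and Krt1 were at 0 counts in all 9 libraries. The keratinocyte list summed to 1.05 to 3.68 CPM in aged and 0.798 to 1.01 CPM in young libraries. Its ages also did not overlap, at a low level and in the direction opposite to the reticular stroma sum.

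**Figure D5:**
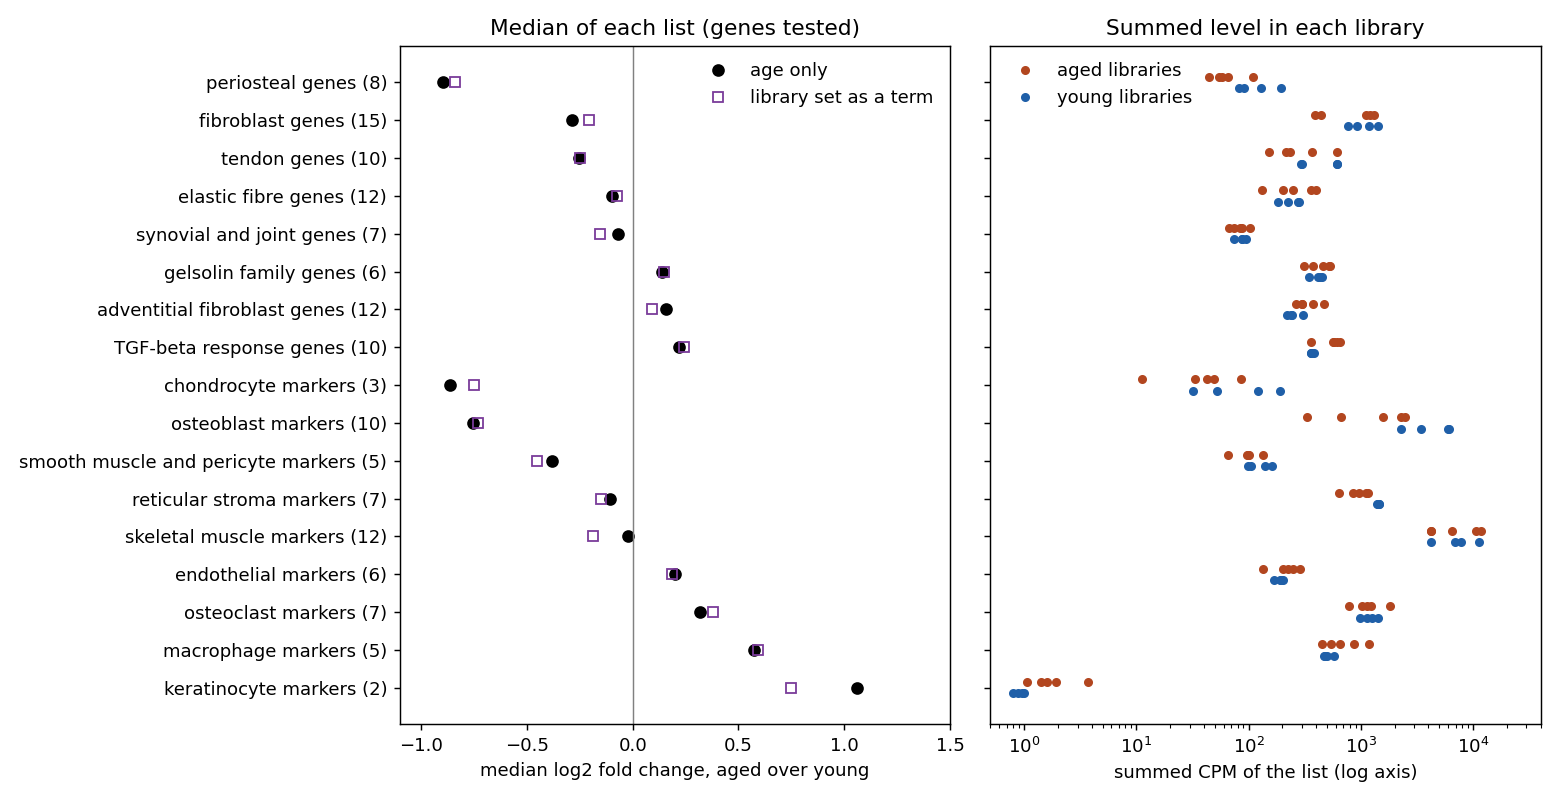
Left, the median of log2 fold changes, aged over young, from the fits without and with the set term, for 8 lists of related genes and 9 lists of other cell types, with the number of genes tested in brackets; right, the summed CPM of each list in every library on a log axis, aged above young. Periosteal genes are at −0.90 and osteoblast markers at −0.75, and the muscle markers lie at 4189 to 11769 CPM in aged and 4221 to 11381 CPM in young libraries.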

How the data were processed

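The 10 genes and the gene lists were chosen with earlier results of these data known. Bowtie 0.12.2 and mm8 are named, without a role, in what the submitters' processing notes list; the quantifier is not given in the sources used here. Estimated counts deposited by the authors were rounded to whole numbers. The deposited TPM values were used for levels between genes, and the authors' deposited fold ratios, log2 fold changes and p-values are quoted only where named.

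Samples were grouped by title. With edgeR 4.0.16 (R 4.3.3), genes passing filterByExpr (minimum count 10, total 15) were TMM-scaled and fitted with age as the only term, and quasi-likelihood p-values were adjusted by Benjamini-Hochberg over 16576 genes, with a threshold of 0.05. SE is the log2 fold change over the root of F, and log2 CPM used a prior count of 2. The spread between 5 and 4 mice and the library totals limit the precision. Alternatives were DESeq2 1.42.0, limma-voom (limma 3.58.1), other scalings and filters, a replicate block, the library set (from the ribosomal protein share) as a term, removal of 159 hemoglobin and immunoglobulin genes and subsets of libraries. Aged 5 against young 1 to 3, and the set term with each library left out, were added after seeing the data.

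Single genes given are the 10, the first 3 tested of each related list, the related genes Tgfbi, Mfap2, Capg, Scin and Cnmd, and for each of the 10 the 2 genes of at least 1 CPM with the highest r; other cell types are given as list sums. One gene that this rule names is not reported here.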

Additional observations from a re-analysis of the deposited data

Results flagged for a closer look

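Scx in young 4 was at 2.51 CPM, far from the 0.870 to 0.951 CPM of the other 3 young libraries. The gap to the nearest library was 0.951 of the range of the group, above Dixon's 95% critical value for 4 samples. Of 20 groups of libraries examined this way (10 genes in 2 age groups) 1 was flagged, and chance alone flags about 1 in 20. Young 4 is in the 3-library set, and Scx overlaps Bop1, which was at 41.6 CPM there and at 37.6 to 40.8 CPM in the other young libraries. The deposited TPM values, which were not examined this way, set young 4 less apart. Scx was at 1.57 TPM in young 4 and at 0.93 to 1.38 TPM in the other 3 young libraries.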

How the results depend on the processing

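The count of genes called was 0 with age as the only term, and also with 3 other scalings, 2 other filters, limma-voom and without hemoglobin and immunoglobulin genes. It was 360 with DESeq2, 319 with the library set as a term, 1 within the 6-library set and 13 with a replicate block. Leaving out single libraries gave 0 to 6 genes, the 6 without aged 5, and 0 of the 10 genes. The count among the 10 was 1, Lrrc15, with DESeq2 and in the fit with the set term, and 0 with the replicate block. With the set term and a library left out, the count ran from 0 to 1647 genes (754 without aged 5, 1647 without aged 3) and from 0 to 1 of the 10, and the cause was not tested. The mice were treated as unpaired. Same-numbered aged and young libraries deviated together at r = 0.46, 0.55, −0.39 and 0.74 for numbers 1 to 4. Aged 1, 2 and 4 correlated best with the young library of the same number, and aged 3 with young 4. These r values also follow the library sets, so they cannot settle whether the numbers pair the mice. Over 31 alternatives Lrrc15 kept its sign (−2.47 to −1.996), as did Postn (−1.65 to −0.90) and Clec3b (−1.70 to −0.47). The sign turned in 14 alternatives for Prg4, 11 for Dpt, 11 for Scx, 3 for Gsn, 2 for Pi16 and 1 each for Mfap5 and Tnmd. The 3-library set and the comparison with aged 5 alone gave values without a call. Counts of 7 to 18 limit the aged level of Lrrc15, and counts of 15 to 63 over all 9 libraries limit Mfap5 and of 16 to 48 limit Scx.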

Other observations

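The length-scaled TPM and the library-scaled CPM did not move together in every library. The ratio of TPM to CPM per kilobase of the deposited gene length was 1.27 to 1.71 for Gsn in the 6-library set, and 0.641, 0.811 and 0.553 in aged 3, aged 4 and young 4. Mfap5 differed from this pattern in aged 3, with a ratio of 3.18, against 0.963 in aged 4 and 1.02 in young 4. Prg4 differed too, with 2.42 in aged 3, inside its range of 1.88 to 3.79 in the 6-library set. Its ratio was 1.84 in aged 4 and 1.39 in young 4. Aged 3 was the highest library of Mfap5 on both scales, at 6.87 TPM and 3.25 CPM. Scx in aged 3 had a ratio of 0.338 and was the lowest of the 9 libraries in TPM (0.480) while it was the fourth highest in CPM (1.47).

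Cnmd, which encodes chondromodulin and is the closest relative of Tnmd, had too few counts to be tested and averaged 0.137 ± 0.220 CPM in aged (SD, n = 5) and 1.98 ± 2.43 CPM in young libraries (SD, n = 4), with ranges of 0 to 0.519 CPM in aged and 0.378 to 5.59 CPM in young libraries.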
